A study of Mus musculus with 12 samples.

Results

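The genes described here make, inactivate and sense estrogens, and were followed in cumulus cells of the mouse, a form of granulosa cell found around the oocyte. They were taken as a list of 9 gene symbols looked up in the platform annotation, with 1 probe set per symbol, the one with the highest mean over the 12 arrays. Of the 9 genes, 8 were found with 1 probe set each, among 19938 genes on the array. These were Hsd17b1, Hsd17b4, Hsd17b11, Sult1e1, Esr1, Esr2, Nrip1 and Greb1, while Sts, the steroid sulfatase gene, is not analysed here. All 12 arrays came from female 129SV mice, 21 to 26 days old, collected 44 h after 5 IU of equine chorionic gonadotropin (eCG), so that every group had been primed by a gonadotropin in vivo. Complexes were collected in medium with 1 µM cilostamide, a phosphodiesterase inhibitor, and cultured whole for 8 h, 20 complexes to a drop of 50 µl, so that oocytes were present in all groups until the cells were stripped off. The control group (4 arrays) had 293H control medium at 0.125% by volume. The FSH/EGF group (4 arrays) had the same medium with 50 mIU/ml FSH, the pituitary gonadotropin, and 10 ng/ml EGF, epidermal growth factor. The effects of FSH and of EGF cannot be told apart, because they were given together. The GDF9 group (4 arrays) had 20 ng/ml GDF9, which is secreted by oocytes and belongs to the TGF-beta ligands, and its sample labels name no 293H medium. Each array held RNA of 2 of the 8 biological replicates of its condition, so that errors and p-values measure the spread between such pools.

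Granulosa cells convert androgens into estrogens. Hydroxysteroid dehydrogenases then set the balance between weak estrone and potent estradiol, because some members of the family reduce estrone and others oxidise estradiol. Estrogen sulfotransferase adds a sulfate group that keeps estradiol from its receptors, and steroid sulfatase can remove it. Free estradiol acts through the nuclear receptors ERα and ERβ, whose output depends on coregulator proteins. In the ovary, estradiol is known for supporting granulosa proliferation and differentiation before the ovulatory surge.

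With FSH/EGF, 7 of the 8 genes changed, 2 upward (16.5% of all rows) and 5 downward (12.5%), against 29% of all 35399 probe set rows in either direction (limma, Benjamini-Hochberg adjusted p under 0.05 over all rows). The transcript of the inactivating sulfotransferase, Sult1e1, rose by 6.87 ± 0.15 (log2, SE, n = 4 and 4). Those of both estrogen receptors, of the estradiol-forming dehydrogenase Hsd17b1 and of the estrogen-induced gene Greb1 fell, with differences from -3.46 to -1.58. Hsd17b11 rose and Nrip1 fell by small amounts that depended on single arrays, and Hsd17b4 did not pass the threshold. Changes of at least 2-fold were seen for 5 of the 8 genes, beside 5.14% of all rows. Of these, 1 went upward (3.59% of rows) and 4 downward (1.54%). The FSH/EGF and control arrays did not overlap for 6 of the 8 genes (33.2% of rows), 2 of them higher (17%) and 4 lower (16.2%). The median difference of the 8 genes was -0.99, beside -0.06 over all rows. The genes were chosen with results of these data known, so that these shares describe them and are no test of the group. With GDF9, 0 of the 8 genes passed the threshold, as did 0 of all rows. In these bulk samples, fewer cells of a type and less RNA per cell cannot be told apart.

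**Figure D1:**
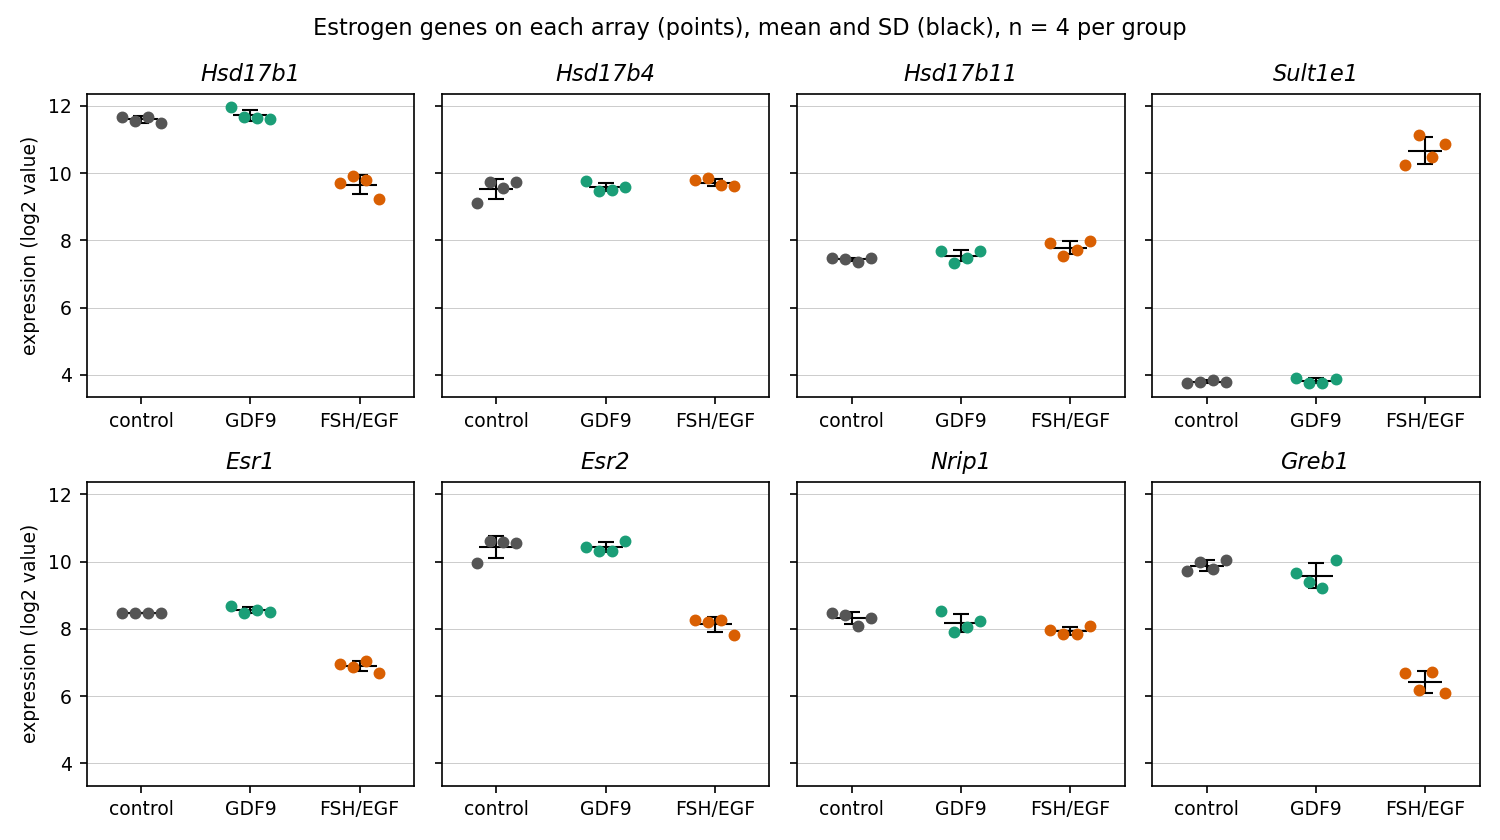
Expression (log2 value, vertical axis) of the 8 genes on each of the 12 arrays, by group, with points for arrays and black bars for the mean and SD (n = 4). Sult1e1 lies at 3.76 to 3.91 on all control and GDF9 arrays and at 10.23 to 11.12 with FSH/EGF, while Hsd17b1, Esr1, Esr2 and Greb1 lie lower on every FSH/EGF array than on any other array.

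The arrays were alike in their distribution, with medians from 5.41 to 5.53 and correlations within groups from 0.971 to 0.995. The cells carried granulosa transcripts: all 12 granulosa and cumulus markers had control means of 7.06 or more. Control array 1 correlated least with its group (mean 0.974), and control array 4 held more oocyte transcripts, with a summed log2 level over 21 oocyte markers of 122.5 against 102.9 to 106.1 on the other controls. FSH/EGF array 3 stood at 107.1 on that sum against 100.3 to 101.8. Without control arrays 1 and 4, 1 of the 8 genes was higher and 4 were lower with FSH/EGF, and the same counts were found without FSH/EGF array 3 as well.

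Hsd17b1 encodes the granulosa dehydrogenase that reduces estrone to estradiol. Its levels on control arrays 1 to 4 were 11.68, 11.55, 11.68 and 11.49, and on GDF9 arrays 11.96, 11.66, 11.64 and 11.61. On the FSH/EGF arrays they were 9.70, 9.91, 9.80 and 9.24. All 4 FSH/EGF arrays lay below all 8 others, by at least 1.59 from the lowest control. The fall against control was -1.94 ± 0.13, or 3.83-fold lower (95% interval -2.23 to -1.65; limma adjusted p = 2.59e-07), the 117th largest among the 19938 genes. Against GDF9 it was -2.05 ± 0.13 (limma adjusted p = 1.66e-07).

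Hsd17b4 and Hsd17b11, whose enzymes act mainly in the oxidising direction, did not fall with Hsd17b1. Hsd17b4 encodes a peroxisomal enzyme that oxidises estradiol and takes part in breakdown of fatty acids. It stood at 9.10, 9.75, 9.55 and 9.73 in controls, at 9.77, 9.47, 9.51 and 9.60 with GDF9 and at 9.78, 9.85, 9.64 and 9.60 with FSH/EGF. The 3 groups overlapped, and control array 1 was the lowest of all. The difference for FSH/EGF was 0.19 ± 0.13 (95% interval -0.10 to 0.48; limma adjusted p = 0.298), and its sign turned when the values were quantile normalized again (-0.04).

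Hsd17b11, which encodes a dehydrogenase of steroids found at lipid droplets, was at 7.47, 7.44, 7.37 and 7.48 in controls. It was at 7.68, 7.34, 7.49 and 7.68 with GDF9 and at 7.93, 7.54, 7.71 and 7.98 with FSH/EGF. The FSH/EGF arrays lay just above the controls, by 0.06 at the nearest, and overlapped with GDF9. The rise against control was 0.35 ± 0.11 (limma adjusted p = 0.0263). With control array 2 left out it was 0.35 and no longer passed limma's threshold (adjusted p = 0.0524). The same held when control array 3 (0.33), FSH/EGF array 1 (0.31) or FSH/EGF array 4 (0.29) was left out, with limma adjusted p of 0.0684, 0.0802 and 0.078. Without both control arrays 1 and 4 it was 0.39 (limma adjusted p = 0.067). After renewed quantile normalization it was 0.14 (limma adjusted p = 0.332), and against GDF9 it was 0.24 ± 0.11 (limma adjusted p = 0.136).

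Sult1e1 encodes estrogen sulfotransferase, which attaches sulfate to estradiol and estrone. Its values on the control arrays were 3.76, 3.80, 3.85 and 3.78, and on the GDF9 arrays 3.91, 3.77, 3.76 and 3.88. With FSH/EGF they were 10.23, 11.12, 10.47 and 10.87. The groups were parted by 6.38 between the highest control and the lowest FSH/EGF array, and the FSH/EGF arrays spread more (SD 0.40) than the controls (SD 0.04). As deposited, these values gave the largest rise of the 19938 genes, both against control (95% interval 6.54 to 7.21; limma adjusted p = 1.58e-11) and against GDF9 (6.84 ± 0.15). The errors and interval of Sult1e1 rest on a spread pooled over the 3 groups, although their SDs were unequal. The control and GDF9 values lay near the 10th percentile of all rows on each array (3.81 to 3.86), and signal over background was not analysed. The 117.4-fold ratio, the interval and the rank therefore hold for the deposited values, and how far the control signal lay above background is not known here.

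Esr1 encodes ERα. Its control values were 8.47, 8.49, 8.47 and 8.47, its GDF9 values 8.69, 8.48, 8.58 and 8.51, and its FSH/EGF values 6.97, 6.87, 7.04 and 6.69. The controls spread by 0.02 in all, and every FSH/EGF array lay at least 1.43 below them. The fall was -1.58 ± 0.08, or 2.99-fold (limma adjusted p = 1.8e-08), and -1.67 ± 0.08 against GDF9 (limma adjusted p = 1.24e-08).

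Esr2 encodes ERβ, the receptor typical of granulosa cells. It was at 9.96, 10.62, 10.59 and 10.57 in controls, where array 1 stood low, and at 10.45, 10.31, 10.32 and 10.62 with GDF9. With FSH/EGF it was at 8.28, 8.20, 8.27 and 7.82, below every other array. The fall against control was -2.29 ± 0.15, or 4.90-fold (95% interval -2.63 to -1.96; limma adjusted p = 2.16e-07), the 72nd largest of all genes. Without control array 1 it was -2.45. Against GDF9 it was also -2.29 ± 0.15 (limma adjusted p = 2.44e-07).

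Nrip1 encodes RIP140, a corepressor of nuclear receptors that is needed for ovulation. It stood at 8.47, 8.42, 8.08 and 8.34 in controls, at 8.54, 7.90, 8.07 and 8.23 with GDF9, and at 7.97, 7.86, 7.84 and 8.09 with FSH/EGF. The groups overlapped, since control array 3 lay just below FSH/EGF array 4. The fall was -0.39 ± 0.13 (limma adjusted p = 0.0416). The call was lost when control array 1 (-0.34), 2 (-0.36) or 4 (-0.39) was left out, with limma adjusted p from 0.0702 to 0.0954. It was also lost when FSH/EGF array 1 (-0.40), 2 (-0.36) or 3 (-0.35) was left out (0.0752 to 0.104), or GDF9 array 3 or 4 (both -0.39, 0.0505 and 0.0536). Without control arrays 1 and 4 it was -0.31 (limma adjusted p = 0.205). Scaling moved it both ways, to -0.31 with equal array medians (limma adjusted p = 0.148) and to -0.61 after renewed quantile normalization (limma adjusted p = 0.00165). Against GDF9 it was -0.24 ± 0.13 (limma adjusted p = 0.23).

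Greb1, a gene induced by estrogen whose product acts with ERα on chromatin, had the largest fall of the 8. Its control values were 9.72, 9.98, 9.78 and 10.05, its GDF9 values 9.67, 9.39, 9.21 and 10.07, and its FSH/EGF values 6.70, 6.19, 6.71 and 6.09. The lowest control array and the highest FSH/EGF array were 3.003 apart. The fall was -3.46 ± 0.19, or 11.0-fold (95% interval -3.87 to -3.05; limma adjusted p = 3.4e-08), the 13th largest of all genes, and -3.16 ± 0.19 against GDF9 (limma adjusted p = 8.26e-08).

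**Figure D2:**
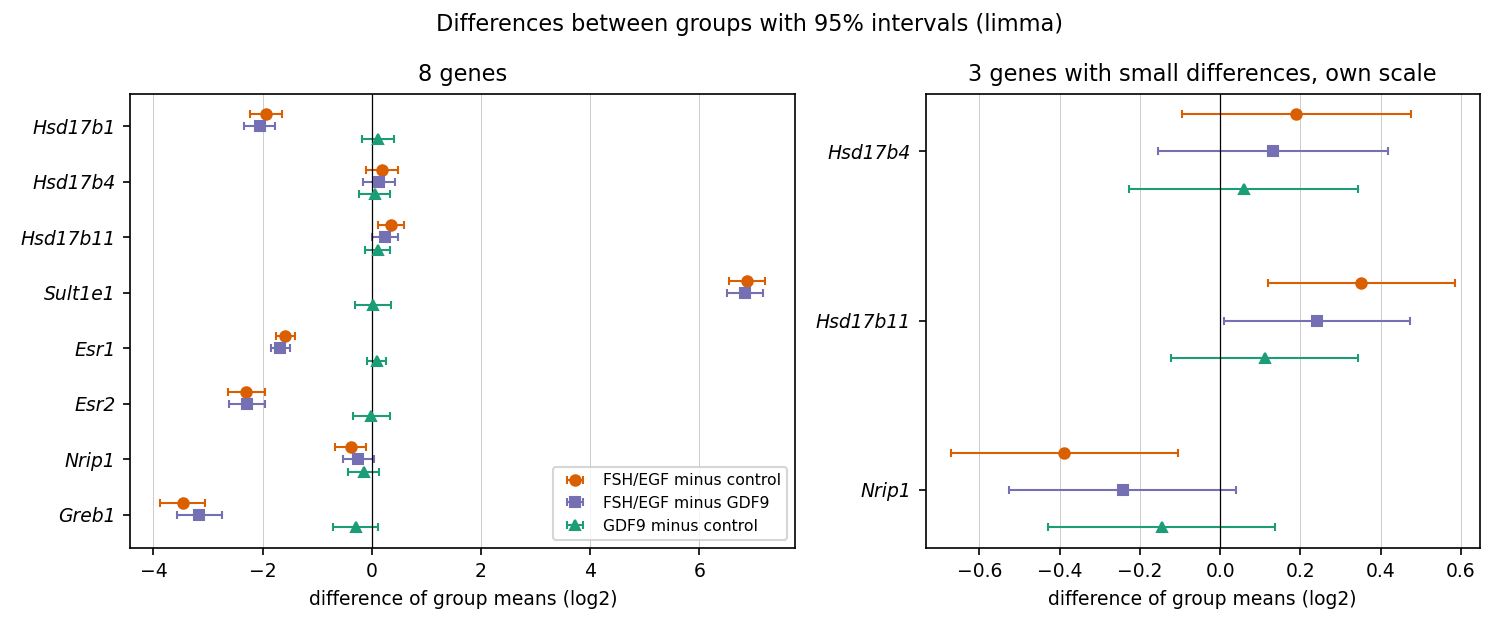
Differences of group means (log2, horizontal axis) with 95% intervals from limma for the 8 genes in 3 comparisons (left), and for Hsd17b4, Hsd17b11 and Nrip1 on a scale of their own (right). The GDF9 minus control intervals of all 8 genes include 0, while Sult1e1 lies at 6.87 and Greb1 at -3.46 for FSH/EGF minus control.

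The bases before the transcription start of Sult1e1, Esr2 and Greb1 are shown because these are the largest riser and the 2 largest fallers of the 8. Windows of 250 bases were taken from RefSeq (GRCm38.p6), which gave 9 windows for 6 of the genes. Capitals mark GGTCA or its reverse complement TGACC, the core to which estrogen receptors and several other nuclear receptors bind, and, in Sult1e1, the longer AAGGTCA, read here as TGACCTT, the letters known for NR5A receptors. Each runs 5′ to 3′ on the gene's own strand.
Sult1e1, chr5:87591612-87591861, minus strand: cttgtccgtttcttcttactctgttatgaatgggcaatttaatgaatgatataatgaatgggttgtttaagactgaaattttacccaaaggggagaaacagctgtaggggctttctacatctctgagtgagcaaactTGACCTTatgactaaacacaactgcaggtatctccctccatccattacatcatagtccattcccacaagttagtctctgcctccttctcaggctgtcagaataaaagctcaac
Esr2, chr12:76177260-76177509, minus strand: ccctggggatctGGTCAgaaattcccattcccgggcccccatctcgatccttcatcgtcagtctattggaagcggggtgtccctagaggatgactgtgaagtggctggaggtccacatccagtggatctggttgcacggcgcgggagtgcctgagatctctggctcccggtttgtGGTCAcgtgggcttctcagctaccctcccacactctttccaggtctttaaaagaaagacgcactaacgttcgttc
Greb1, chr12:16800887-16801136, minus strand: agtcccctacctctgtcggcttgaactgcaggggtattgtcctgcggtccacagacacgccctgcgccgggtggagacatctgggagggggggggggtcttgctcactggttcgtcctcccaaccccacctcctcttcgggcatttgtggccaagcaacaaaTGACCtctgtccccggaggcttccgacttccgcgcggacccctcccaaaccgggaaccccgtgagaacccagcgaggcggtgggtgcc

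The GGTCA core began 113 bases before the start in Sult1e1, 238 and 75 bases before it in Esr2 and 88 bases before it in this window of Greb1. On either strand it was found in 5 of the 9 windows, beside 35.2% of 32851 windows of all genes. AAGGTCA, which contains it, was found in 1 of the 9, that of Sult1e1, beside 4.08% of all windows. The classical estrogen response element, GGTCA and TGACC with any 3 bases between them, was found in 0 of the 9 and 0.0639% of all windows. The cAMP response element TGACGTCA (1.55% of all windows) and the AP-1 site TGANTCA (6.75%) were found in 0 of the 9. These counts describe letters in short windows.

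The genes did not change equally. The within-array log2 difference of 2 genes was compared between groups, since the level of 1 probe set cannot be set against that of another. Whether 2 probe sets respond alike to a change in transcript was not tested, so the shifts hold for the log2 values. For Hsd17b1 minus Hsd17b4 this difference fell by 2.13 from control to FSH/EGF, from 1.77 to 2.58 on control arrays to -0.36 to 0.16 on FSH/EGF arrays. For Hsd17b1 minus Hsd17b11 it fell by 2.29, with no overlap either (4.01 to 4.31 against 1.26 to 2.37). Both give the transcripts of an estradiol-forming enzyme relative to those of an oxidising one. Other pairs of these roles were not compared. With FSH/EGF, other reductase genes rose, Hsd17b12 by 1.27 and Hsd17b7 by 0.91, and the oxidising Hsd17b10 was at -0.69.

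Esr1 minus Esr2 shifted by 0.71 with FSH/EGF, since the log2 values of Esr2 fell more than those of Esr1. It ran from -2.14 to -1.49 on control arrays and from -1.33 to -1.13 on FSH/EGF arrays. Each of these 3 shifts, and each corresponding shift against GDF9 (-2.19, -2.30 and 0.61), had an exact permutation p of 0.0286, two-sided, the smallest that 4 against 4 arrays allow (0.0429 adjusted over the 9 tests). Between GDF9 and control the shifts were 0.06, 0.01 and 0.10 (two-sided exact permutation p from 0.514 to 0.943). The genes were chosen with results of these data known, and the shifts with FSH/EGF largely restate the falls of Hsd17b1 and Esr2 given above. Their p-values therefore describe the shifts and add no separate support.

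**Figure D3:**
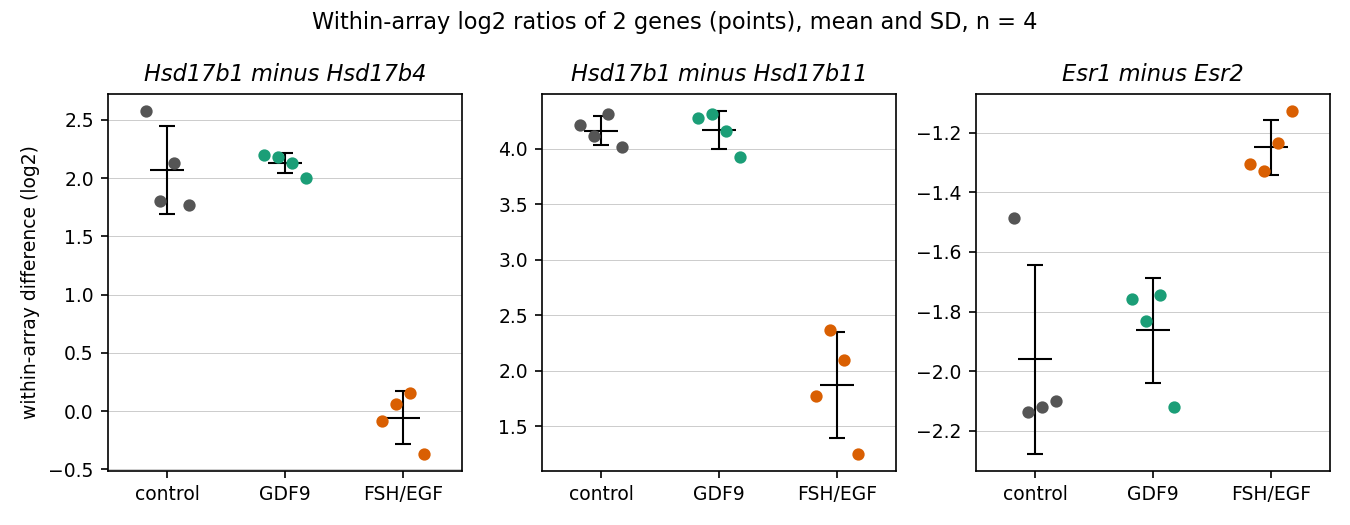
Within-array log2 differences of 2 genes (vertical axes) by group, with points for arrays and black bars for the mean and SD (n = 4). Relative to Hsd17b4 and Hsd17b11, Hsd17b1 is lower on all 4 FSH/EGF arrays than on all other arrays, and Esr1 minus Esr2 is higher on all 4.

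For GDF9 minus control, 0 of 35399 rows passed limma's threshold (smallest adjusted p = 0.847), and 1590 rows (4.49%) had an unadjusted p under 0.05, among them 0 of the 8 genes. The arrays of these groups did not overlap for 0 of the 8 genes, beside 1.98% of rows (0.989% higher and 0.994% lower). Greb1 had the largest difference of the 8, at -0.30 ± 0.19 (95% interval -0.71 to 0.12; limma adjusted p = 0.971), with GDF9 arrays 1, 2 and 3 below all controls and GDF9 array 4 above them. The 95% intervals of the other 7 genes lay between -0.43 and 0.40. For Esr2 the difference was -0.01 ± 0.15, for Sult1e1 0.03 ± 0.15, for Esr1 0.09 ± 0.08 and for Hsd17b1 0.12 ± 0.13. GDF9 array 1 held the highest GDF9 value of 6 of the 8 genes, and GDF9 array 2 the lowest of 5. With FSH/EGF, 5 of the 8 genes passed against GDF9, beside 22.5% of all rows, 1 upward (13.6% of rows) and 4 downward (8.96%). The same 5 differed at least 2-fold (4.51% of rows), 1 upward (2.94%) and 4 downward (1.58%). They were also the 5 whose arrays did not overlap (26.8%), 1 higher (14.9%) and 4 lower (11.9%). This comparison shares its arrays with the other 2. Among FSH/EGF arrays, array 4 had the lowest values of Hsd17b1, Hsd17b4, Esr1, Esr2 and Greb1.

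To place the 8 genes in their pathway, 86 genes in 8 lists by role were followed, of which 78 were measured, 70 besides the 8. With FSH/EGF, 16 of the 70 rose and 13 fell, or 41.4% beside the 29% of all rows, and 9 of them (12.9%) changed at least 2-fold, beside 5.14% of rows. The 70 are named genes with their brightest probe set, while all rows include 11989 without a symbol, so these shares are of unlike sets. The median difference of the 70 was -0.08. With GDF9, 0 of the 70 passed. Equal array medians moved the counts to 21 rises and 8 falls, and leaving out FSH/EGF array 3 to 15 and 9.

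In the synthesis list, the reductases other than Hsd17b1 went up. Hsd17b12, which also elongates fatty acids, rose by 1.27 ± 0.14 to a mean of 8.66 (limma adjusted p = 2.07e-05), and Hsd17b7, which also serves cholesterol synthesis, by 0.91 ± 0.14. Together with Hsd17b1, 2 of 4 measured genes rose and 1 fell. The other 2 genes of this list, Cyp19a1 and Por, were not measured, so the step from androgens to estrogens is not described here. Of the 5 measured genes of estradiol oxidation, 1 rose (Hsd17b11) and 3 fell. Hsd17b10, a mitochondrial dehydrogenase, fell by 0.69 ± 0.12. Hsd17b2 was at -0.38, a call lost under 10 of 23 alternatives (-0.48 to -0.27), among them leaving out control array 1 or 3 or FSH/EGF array 1, 2 or 3. The means of Hsd17b2, 4.56 with FSH/EGF and 4.94 in controls, lay below every array's median. Hsd17b14 was at -0.25, a call lost under 9 of 24 (-0.27 to -0.17), among them leaving out control array 1 or 3 or FSH/EGF array 2, 3 or 4.

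In the list of sulfation and desulfation, the genes other than Sult1e1 did not move in 1 direction. Papss2, which makes the sulfate donor PAPS, fell by 2.75 ± 0.13, from a mean of 8.32 to 5.57 (limma adjusted p = 7.62e-09). Its paralog Papss1 rose by 0.37 ± 0.10, a call lost after renewed quantile normalization (0.16) and without control arrays 1 and 4. Slc26a2, a sulfate transporter of the cell membrane, rose by 1.05 ± 0.11, and Slc35b2, which carries PAPS into the Golgi, fell by 0.55 ± 0.12, a call that ended when FSH/EGF array 3 was left out together with control arrays 1 and 4 (limma adjusted p = 0.0582). In all, 3 of 9 measured genes rose and 2 fell. In the hydroxylation list 0 of 7 rose and 2 fell, led by Cyp1b1, which hydroxylates estradiol, at -2.71 ± 0.21 (from 8.64 to 5.93). Cyp1a1 was at -0.29, a call lost under 10 of 23 alternatives (-0.37 to -0.21), among them leaving out control array 1 or 3 or FSH/EGF array 1, 3 or 4. The means of Cyp1a1, 4.27 with FSH/EGF and 4.56 in controls, also lay below every array's median.

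**Figure D4:**
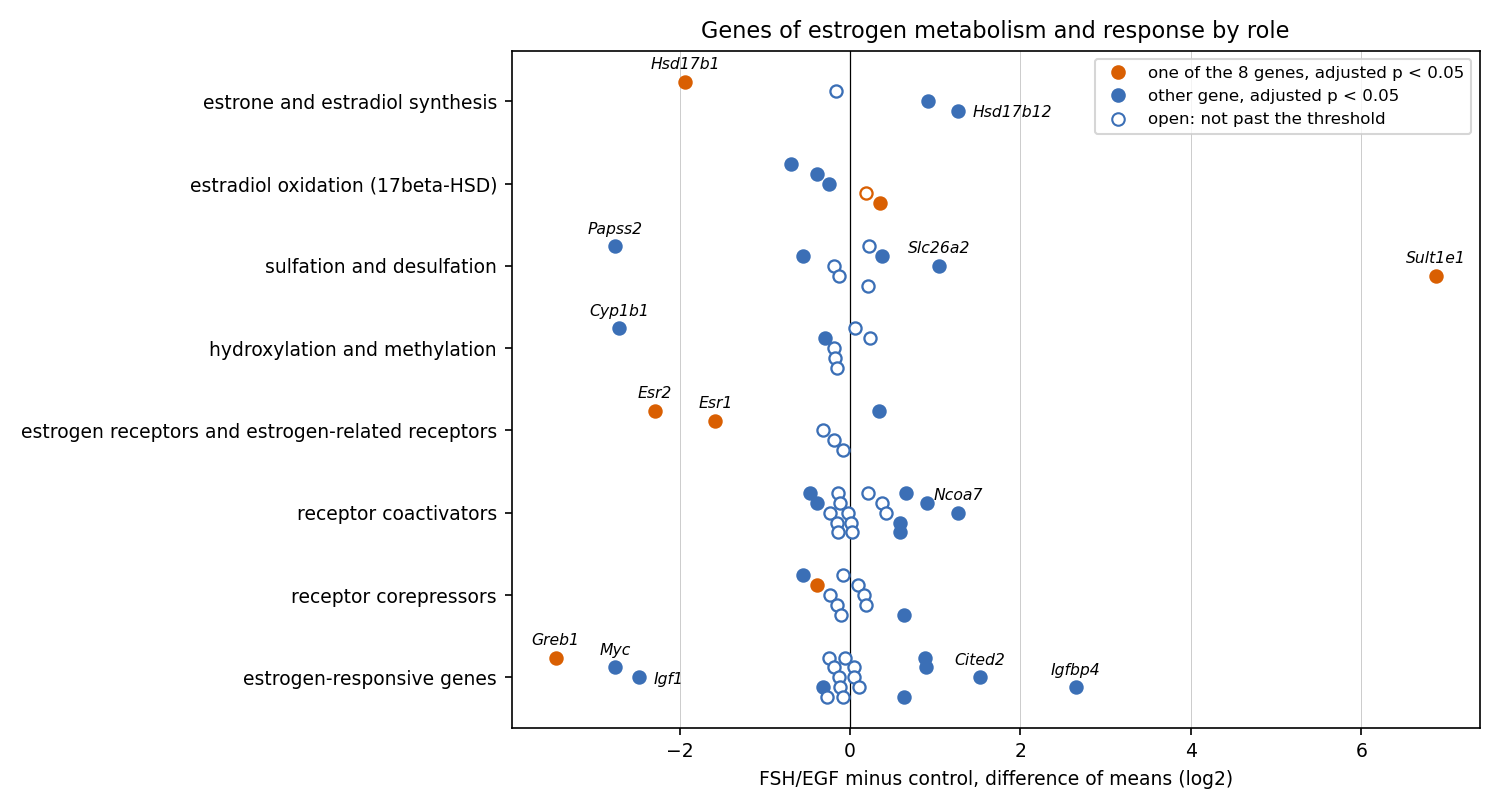
FSH/EGF minus control differences of means (log2, horizontal axis) for the 78 measured genes in 8 role lists (rows), with filled points for genes past limma's threshold, open points for the others, and orange for the 8 genes. Sult1e1 lies far to the right at 6.87, while Papss2, Cyp1b1, Esr2, Esr1, Greb1, Myc and Igf1 lie to the left.

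Among 6 receptors, Esr1 and Esr2 fell and the estrogen-related receptor gene Esrra rose by 0.34 ± 0.10, a call lost under 6 of 24 alternatives (0.18 to 0.43), among them renewed quantile normalization and leaving out control array 3 or 4 or FSH/EGF array 2 or 3. The membrane receptor gene Gper1 was at -0.18 and did not pass. Of 18 coactivator genes 5 rose and 2 fell. Ncoa7 rose by 1.27 ± 0.13, the acetyltransferase gene Kat2b by 0.90 ± 0.08, Ncoa4 by 0.65 ± 0.14, and Ncoa3 and the acetyltransferase gene Ep300 each by 0.59 ± 0.09. Ncoa2 fell by 0.39 ± 0.09 and Ncoa1 by 0.47 ± 0.13, the latter a call lost under 6 of 24 alternatives, among them leaving out control array 2 or FSH/EGF array 1, 2 or 3. Of 10 measured corepressor genes 1 rose, the deacetylase gene Hdac3 at 0.64 ± 0.12, and 2 fell, Nrip1 and Lcor (-0.56 ± 0.12).

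The list of estrogen-responsive genes, drawn mostly from uterus and breast, went both ways. Of 19 measured genes 5 rose and 4 fell, and the median difference was -0.08. Besides Greb1, the growth regulator gene Myc fell by 2.76 ± 0.21 (from 9.57 to 6.81) and Igf1, insulin-like growth factor 1, was at -2.48 ± 0.21 (from 10.003 to 7.52). Stc2 was at -0.32 ± 0.09, a call lost under 5 of 24 alternatives, among them leaving out FSH/EGF array 4. Igfbp4, which binds insulin-like growth factors, rose by 2.65 ± 0.26 (from 7.89 to 10.54) and the transcriptional cofactor gene Cited2 by 1.53 ± 0.15. The other three that rose were Xbp1 (0.89), the retinoic acid receptor gene Rara (0.88) and the cathepsin gene Ctsd (0.63). Pgr, the progesterone receptor gene and a common estrogen target, was at -0.06 and did not pass. Its means, 4.61 with FSH/EGF and 4.67 in controls, lay below every array's median, and signal over background was not analysed.

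The profiles of the 5 genes with changes of at least 2-fold were compared with all others over the 12 arrays, by the root mean square difference of mean-centred log2 values. Nearest to Esr2 were Ivns1abp (0.11), Greb1l, a paralog of Greb1 (0.16), and Me3, a mitochondrial malic enzyme (0.16). Greb1l fell by 2.18 ± 0.13. Nearest to Esr1 were Nup210, a nuclear pore gene (0.08), Psd4 (0.10) and Carhsp1 (0.11), and nearest to Hsd17b1 were Smpdl3b (0.15), the ganglioside synthase gene St3gal5 (0.15) and Crabp2, a retinoic acid binding protein (0.15). Nearest to Greb1 were Abca4 (0.22), Limch1 (0.23) and Rhobtb1 (0.24). Genes with provisional symbols were passed over in naming neighbours, and with them kept Limch1 ranked 3 and Rhobtb1 ranked 4 for Greb1. For Sult1e1 the nearest were Nts at 0.59, Sfrp2 at 0.78 and Akr1b8 at 0.80, farther off in a measure that is not scaled to a gene's change. Among the 8 themselves, Hsd17b1 and Esr1 were the closest pair (0.21), and Esr1 and Esr2 were 0.37 apart. These distances mostly reflect the size of the FSH/EGF difference.

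Most markers of granulosa cells moved in the same direction as the genes that fell. Of 12 granulosa and cumulus markers 9 fell with FSH/EGF and 0 rose, where 12.5% of all rows fell and 16.5% rose, and their summed log2 level was 93.3 to 95.8 on FSH/EGF arrays against 107.0 to 109.4 on controls. Of the 9, 4 fell at least 2-fold (1.54% of rows), among them the FSH receptor gene Fshr (-3.14) and the nuclear receptor gene Nr5a2 (-2.09). The fall of Foxl2 was smaller (-0.71), and Amh (-0.36), Fst (-0.17) and Gata4 (0.07) did not pass. Of 11 theca and stroma markers 4 fell (sums 60.1 to 60.9 against 65.3 to 66.1), and of 3 red blood cell markers 2 fell (15.0 to 15.1 against 15.3 to 16.04). Of 21 oocyte markers 1 fell (100.3 to 107.1 against 102.9 to 122.5).

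In the remaining marker lists the shares that rose were near the 16.5% of all rows or rested on few genes. Of 12 endothelial markers 2 rose and 1 fell (64.1 to 64.8 against 60.8 to 63.3), with a median difference of -0.05. Cdh5 was at 3.18 and Tek at 0.29, while the endothelial genes Pecam1 (4.89 to 4.95 with FSH/EGF) and Kdr (4.37 to 4.71) lay below every array's median and did not pass. Of 9 surface epithelium markers 2 rose, Krt8 (3.02) and Krt18 (2.72), and 3 fell (52.9 to 53.6 against 48.0 to 50.5). Only these 2 that rose had positive differences, and the median difference was -0.21. Of 13 leukocyte markers 2 rose, Cd68 (0.50) and Cd52 (0.46), the sums overlapped (62.9 to 63.6 against 62.7 to 65.3) and the median difference was -0.16. The part of these marker differences in the changes of the 8 genes was not tested.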

How the data were processed

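The deposited table held log2 values of 35399 probe set rows for 12 arrays, normalized by the authors. The submitters' processing notes name RMA, Partek and GCOS without role or version, and the genome build is not given in the sources used here. The platform annotation gave 1 gene symbol for 21789 rows, several for 1621 and none for 11989. A gene was represented by its brightest probe set. The shares of all rows given beside counts of genes include the rows without a symbol. Groups were compared with limma (version 3.58.1, R 4.3.3), fitting the 3 group means on the 12 arrays together with empirical Bayes variances. P-values were adjusted over all rows by the Benjamini-Hochberg method, with a threshold of 0.05. Arrays give no read depth, and their number limits the precision. Within-array differences of 2 genes were compared by exact permutation tests.

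The 8 genes, the role lists and the marker lists were chosen with earlier results of these data known. Besides the 8, the text names up to 4 genes per role list by size of change among those past the threshold. By the same rule it names the 3 nearest profiles of each gene changed at least 2-fold, passing over provisional symbols. Gper1, Pgr, Ep300, Ncoa1, Ncoa2, Xbp1, Rara, Ctsd, Stc2 and the single markers lie outside that rule and were picked with their values known. The planned comparison of Sult1e1 with Sts was not run, since Sts is not analysed here. Alternatives were other variance models, array weights, only the groups compared, other scalings, filters on rows, the mean over probe sets, a replicate block and arrays left out. The replicate numbers were not used to pair the arrays in the main comparisons, and whether same-numbered arrays belong together is not known.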

Additional observations from a re-analysis of the deposited data

Results flagged for a closer look

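In 33 groups of 4 values (8 genes and 3 within-array differences, in 3 groups each), a sample lay far from the other 3 in 3 cases by Dixon's test, where chance gives about 1 in 20. Esr2 on control array 1 stood at 9.955, below 10.57 to 10.62 on the other controls. On the same array, Esr1 minus Esr2 was -1.49, above the other controls. Hsd17b1 on GDF9 array 1 stood at 11.96, above 11.61 to 11.66 on the other GDF9 arrays. Control array 1 also had the lowest array weight of the 12 (0.269), and GDF9 array 1 the next lowest (0.485).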

How the results depend on the processing

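Sult1e1, Hsd17b1, Esr1, Esr2 and Greb1 kept their direction and stayed past the threshold under all 24 alternatives, against control and against GDF9. Against control their ranges were 6.72 to 7.02, -2.07 to -1.80, -1.76 to -1.51, -2.51 to -2.19 and -3.57 to -3.35. The call of Hsd17b11 was lost under 7 of the 24 and that of Nrip1 under 11. The count of genes higher with FSH/EGF than control was 2, and 1 after renewed quantile normalization and without control arrays 1 and 4, with or without FSH/EGF array 3. With 1 array left out it was 1 to 2, that of lower genes 4 to 5, and rows past the threshold numbered 8139 to 10801. Against GDF9, leaving out 1 array gave 1 to 2 higher genes, the 2 being without FSH/EGF array 2, where Hsd17b11 passed (0.33, adjusted p = 0.0426). Nrip1 passed against GDF9 after renewed quantile normalization (-0.40, adjusted p = 0.0235). Between GDF9 and control, 0 to 1 rows passed with 1 array left out, the 1 being without GDF9 array 3. The causes were not tested.

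The split of rows past the threshold between FSH/EGF and control was 57% higher, 71.9% with equal array medians and 52.4% after renewed quantile normalization. With 1 array left out, Hsd17b1 minus Hsd17b4 shifted by -2.23 to -1.96 from control to FSH/EGF, Hsd17b1 minus Hsd17b11 by -2.46 to -2.08 and Esr1 minus Esr2 by 0.65 to 0.87, values with no test, since 3 against 4 arrays cannot pass. The replicate number as a block gave 9600 rows past the threshold in place of 10269 and changed no call of the 8 genes. Of the other genes in the role lists, it ended the call of Esrra and brought Ncoa6 past the threshold. Deviations of same-numbered arrays correlated above 0.1 in 7 of 12 pairs of arrays and best with their own number in 5. Signal over background was not analysed, which limits the size of the Sult1e1 rise.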
